A study of Rattus norvegicus with 12 samples.

Results

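The genes of tetrahydrobiopterin and nitric oxide synthesis were followed in rat dorsal root ganglia, which hold the cell bodies of the sensory neurons that serve skin, muscle and viscera, after ligation of the spinal nerves. Every probe set annotated to Gch1, Gchfr, Spr, Pts, Qdpr, Nos1, Nos2 or Nos3 was taken, and each was kept on its own. This gave 8 probe sets of 7 of the 8 genes, out of 15866 probe sets other than array controls, which cover 10411 genes with a probe set of their own. Gch1 had 2 of them. Spr was measured only by a probe set that is also annotated to Spr-ps1, and Nos2 had a further one shared with Nos2-ps1. These 2 shared probe sets are described but not counted among the 8.

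The 12 Affymetrix arrays held total RNA of L4/L5 ganglia from adult male Sprague Dawley rats of 180 to 300 g. The rats belonged to 2 genetic sub-lines, Low Pain (LP) and High Pain (HP). The 4 groups of 3 arrays were LP SNL, LP sham, HP SNL and HP sham. SNL stands for spinal nerve ligation, a rat model of neuropathic pain, here of both L4 and L5 with ganglia taken after 3 days, and sham rats were operated on with the nerve left undamaged. For sham ganglia the sample titles give no time. Nothing in the labels says that arrays of a group are separate animals, or whether ganglia were pooled, so the p-values rest on variation among these arrays alone, which may be technical.

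Tetrahydrobiopterin is made from GTP in a pathway that GTP cyclohydrolase 1 (Gch1) starts and limits. 6-pyruvoyltetrahydropterin synthase (Pts) and sepiapterin reductase (Spr) complete it. The cofactor is needed by the nitric oxide synthases and by the aromatic amino acid hydroxylases, and quinoid dihydropteridine reductase (Qdpr) restores it after hydroxylation. In rodents, tetrahydrobiopterin made by injured sensory neurons is known to raise pain sensitivity. The nitric oxide synthases turn arginine into citrulline and nitric oxide, which acts mainly through cyclic GMP.

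Promoters are shown for 3 genes. Gch1 had a probe set that rose after ligation and one that did not pass. Spr was measured by a probe set that is shared with Spr-ps1 and rose. Nos1 was the member with most matches to the motifs searched. Each promoter runs from 250 bases before to 50 after the gene's annotated start in RefSeq's rat assembly GRCr8, 5′ to 3′ on the gene's own strand. A promoter was found for 7 of the 8 genes, not for Nos2. Capitals mark the motifs, searched on both strands. They were TGANTCA, bound by AP-1 factors such as Jun, TGACG, the core of the cyclic AMP response element, and CCAAT, the CCAAT box. The regions are chr15:22917363-22917662 for Gch1, chr4:119233130-119233429 for Spr and chr12:44371788-44372087 for Nos1, all on the minus strand.
Gch1: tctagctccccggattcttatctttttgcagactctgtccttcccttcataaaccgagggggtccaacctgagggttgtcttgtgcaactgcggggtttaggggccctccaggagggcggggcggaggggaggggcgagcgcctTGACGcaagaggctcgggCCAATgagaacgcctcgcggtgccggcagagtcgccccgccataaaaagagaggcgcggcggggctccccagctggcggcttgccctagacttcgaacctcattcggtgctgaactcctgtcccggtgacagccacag
Spr: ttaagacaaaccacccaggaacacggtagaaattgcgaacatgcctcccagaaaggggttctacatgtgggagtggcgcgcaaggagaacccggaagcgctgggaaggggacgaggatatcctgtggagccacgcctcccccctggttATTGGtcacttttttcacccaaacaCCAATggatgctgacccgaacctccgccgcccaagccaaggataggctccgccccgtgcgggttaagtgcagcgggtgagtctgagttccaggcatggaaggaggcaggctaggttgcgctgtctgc
Nos1: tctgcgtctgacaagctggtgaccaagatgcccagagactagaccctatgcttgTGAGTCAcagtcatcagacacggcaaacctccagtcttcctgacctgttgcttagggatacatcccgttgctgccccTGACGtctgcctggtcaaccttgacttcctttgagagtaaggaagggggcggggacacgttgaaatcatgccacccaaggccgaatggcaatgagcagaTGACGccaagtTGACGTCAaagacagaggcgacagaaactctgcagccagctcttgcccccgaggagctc

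The Gch1 promoter held 1 TGACG, whose first base lies at position -106 counted from the start, and 1 CCAAT at -88. That of Spr held a CCAAT box on the opposite strand, read here as ATTGG, at -102 and another at -77. The Nos1 promoter held 1 TGANTCA at -196 and 4 matches to TGACG, at -119, -20, -9 and, on the opposite strand, -6. The last 2 overlap. Gchfr and Qdpr each had 1 CCAAT box, and in Pts and Nos3 none of these letters was found. Among 33469 promoters of the same length, TGANTCA stood in 7.3%, TGACG in 21.2% and CCAAT in 37.5%. Motif matches are descriptions of these windows, not binding sites.

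The ganglia carried the markers of sensory neurons. Of 10 probe sets for 7 neuronal marker genes, among them peripherin and the neurofilament Nefh, the summed signal lay between 29122.4 and 32934.9 in LP SNL and between 37692.4 and 42964.7 in LP sham. The sum ran from 34570.8 to 36325.7 in HP SNL and from 39996 to 42435.9 in HP sham. In each line 4 of the 10 probe sets passed as lower after ligation, where 914 of all 15866 did so in LP and 848 in HP. The median log2 difference over the 10 was -0.21 in LP and -0.03 in HP. Array medians lay between 278.4 and 313.2, and log2 signals of 2 arrays correlated at 0.941 to 0.965 within groups and 0.922 to 0.961 between groups. Signals are array units on a linear scale, in the order of replicates 1 to 3, and compare 1 probe set across arrays, not different probe sets. Differences are in log2(signal + 1), with the SE of the limma fit, and adjusted p-values come from that fit after Benjamini-Hochberg adjustment over all 15866 probe sets, with a threshold of 0.05. On the log2(signal + 1) scale the differences of dim probe sets depend on the number added to the signal and have a larger spread. In whole ganglia, fewer cells of a type and less RNA per cell cannot be told apart.

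Ligation raised 1 of the 8 probe sets in each line, a Gch1 probe set, and lowered none. Over all probe sets, 12.1% passed the threshold in LP and 10.8% in HP, and 6.35% in LP and 5.42% in HP did so as higher. The share of 1 in 8 (12.5%) is thus near the background. The median log2 difference over the 8 probe sets was 0.12 in LP and 0.47 in HP, against 0.03 in LP and -0.01 in HP over all probe sets.

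Gch1, measured by probe set 1387221_at, had signals of 398.7, 449.2 and 515.8 in LP SNL ganglia, against 121.8, 172.5 and 55.6 in LP sham ganglia. In HP SNL ganglia they were 356, 379.3 and 290.2, against 28.3, 41.3 and 108.5 in HP sham ganglia. Each of the 6 ligated arrays lay above each of the 6 sham arrays. The means were 455 ± 58.7 in LP SNL and 117 ± 58.6 in LP sham, and 342 ± 46.2 in HP SNL and 59.4 ± 43.0 in HP sham (SD, n = 3 each). Among the signals of their own array, those of the ligated arrays stood between percentiles 49.4 and 67.9 and those of the sham arrays between 8.5 and 34.0.

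The log2 difference of this Gch1 probe set was 2.09 ± 0.49 in LP (95% interval 1.00 to 3.18, 4.26-fold, adjusted p = 0.0204). In HP it was 2.73 ± 0.49 (95% interval 1.64 to 3.81, 6.63-fold, adjusted p = 0.00680). This probe set thus rose in both lines, and the response of LP minus that of HP was -0.64 ± 0.69 (95% interval -2.18 to 0.90, adjusted p = 0.984). With larger pseudocounts of 16 and 32 the differences were 1.93 and 1.79 in LP and 2.38 and 2.12 in HP. The call in LP was lost without LP SNL replicate 1 (2.18, adjusted p = 0.0506), replicate 2 (2.09, adjusted p = 0.0549) or replicate 3 (1.99, adjusted p = 0.0715), and without LP sham replicate 3 (1.63, adjusted p = 0.0564). The call in HP held when any array was left out.

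The other Gch1 probe set, 1368503_at, did not pass in either line. It had signals of 149.9, 255.5 and 132.1 in LP SNL, against 129.6, 81.3 and 113.5 in LP sham, and the ligated arrays were all higher. In HP SNL it had 59.6, 187.3 and 170.6, against 96.4, 57.9 and 108.8 in HP sham, where the ranges overlapped. Its log2 difference was 0.69 ± 0.44 in LP (95% interval -0.30 to 1.68, adjusted p = 0.396) and 0.55 ± 0.44 in HP (95% interval -0.44 to 1.53, adjusted p = 0.514). Both probe sets cite the same transcript record in the platform annotation. Leaving out 1 array moved the value of 1368503_at to between 0.40 and 0.88 in LP, and in HP to between 0.25 without HP SNL replicate 2 and 1.07 without HP SNL replicate 1. The difference between the 2 probe sets was not tested.

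Gchfr encodes the feedback protein that binds GTP cyclohydrolase 1 and lets tetrahydrobiopterin inhibit it. Its probe set 1368085_at had signals of 225.7, 337.1 and 278.4 in LP SNL, against 217.3, 248.7 and 312.9 in LP sham. In HP SNL it had 284.6, 470.8 and 237.5, against 308.7, 323 and 141.7 in HP sham. The groups overlapped in both lines. On the log2 scale SNL minus sham was 0.11 ± 0.35 in LP (95% interval -0.67 to 0.88, adjusted p = 0.898) and 0.39 ± 0.35 in HP (95% interval -0.38 to 1.16, adjusted p = 0.561). The value in HP rested on HP sham replicate 3, without which it was 0.01 (adjusted p = 0.995), and in LP it turned to -0.01 without LP sham replicate 1 and to -0.03 without LP SNL replicate 2.

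Pts, the enzyme of the step after Gch1, was measured by 1369304_at. Its signals were 135, 283.5 and 122.9 in LP SNL, against 180.6, 140.6 and 202.4 in LP sham. They were 158.8, 186 and 165.6 in HP SNL, against 173.8, 238.3 and 177 in HP sham. Ligated and sham arrays overlapped in both lines, and LP SNL replicate 2 was the highest of all 12. The fitted log2 difference was -0.04 ± 0.29 in LP (95% interval -0.69 to 0.60, adjusted p = 0.954) and -0.19 ± 0.29 in HP (95% interval -0.84 to 0.45, adjusted p = 0.753). With 1 array left out it lay between -0.42, without LP SNL replicate 2, and 0.18, without LP SNL replicate 3, in LP, and between -0.27 and -0.05 in HP, so its sign in LP was not stable.

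Sepiapterin reductase, which makes the last reductions to tetrahydrobiopterin, was measured by 1370884_at together with Spr-ps1, so the 2 cannot be told apart. Signals were 548.6, 677.3 and 456.8 in LP SNL, against 305.3, 302.6 and 321.8 in LP sham. They were 684.4, 842 and 871.2 in HP SNL, against 348.3, 244.8 and 464.9 in HP sham. All ligated arrays lay above all sham arrays of their own line. The means were 561 ± 111 in LP SNL and 310 ± 10.4 in LP sham, and 799 ± 100 in HP SNL and 353 ± 110 in HP sham (SD, n = 3 each).

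The shared Spr probe set rose in LP by 0.84 ± 0.22 on the log2 scale (95% interval 0.34 to 1.33, 1.78-fold, adjusted p = 0.0365). It rose in HP by 1.22 ± 0.22 (95% interval 0.72 to 1.72, 2.33-fold, adjusted p = 0.00768). The call in LP was lost without any 1 of LP SNL replicates 1 and 2, the 3 LP sham arrays, HP SNL replicate 2 and HP sham replicate 1, at differences of 0.69 to 0.86 and adjusted p of 0.0514 to 0.118. The call in HP held when any array was left out. The response of LP minus that of HP was -0.38 ± 0.32 (95% interval -1.09 to 0.32, adjusted p = 0.984).

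Qdpr, the recycling enzyme, had the smallest spread between replicates. Probe set 1367695_at had signals of 3043.2, 3464.9 and 3078.9 in LP SNL, against 2981.1, 2934.3 and 2837.9 in LP sham. In HP SNL it had 3245, 3189.2 and 3350.7, against 3060.4, 2726.4 and 3301.1 in HP sham. The LP SNL arrays were all above the LP sham arrays, and the HP groups overlapped. Its log2 difference was 0.13 ± 0.10 in LP (95% interval -0.09 to 0.35, adjusted p = 0.481) and 0.11 ± 0.10 in HP (95% interval -0.11 to 0.33, adjusted p = 0.555), so that differences above 0.35 lay outside both intervals.

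**Figure D1:**
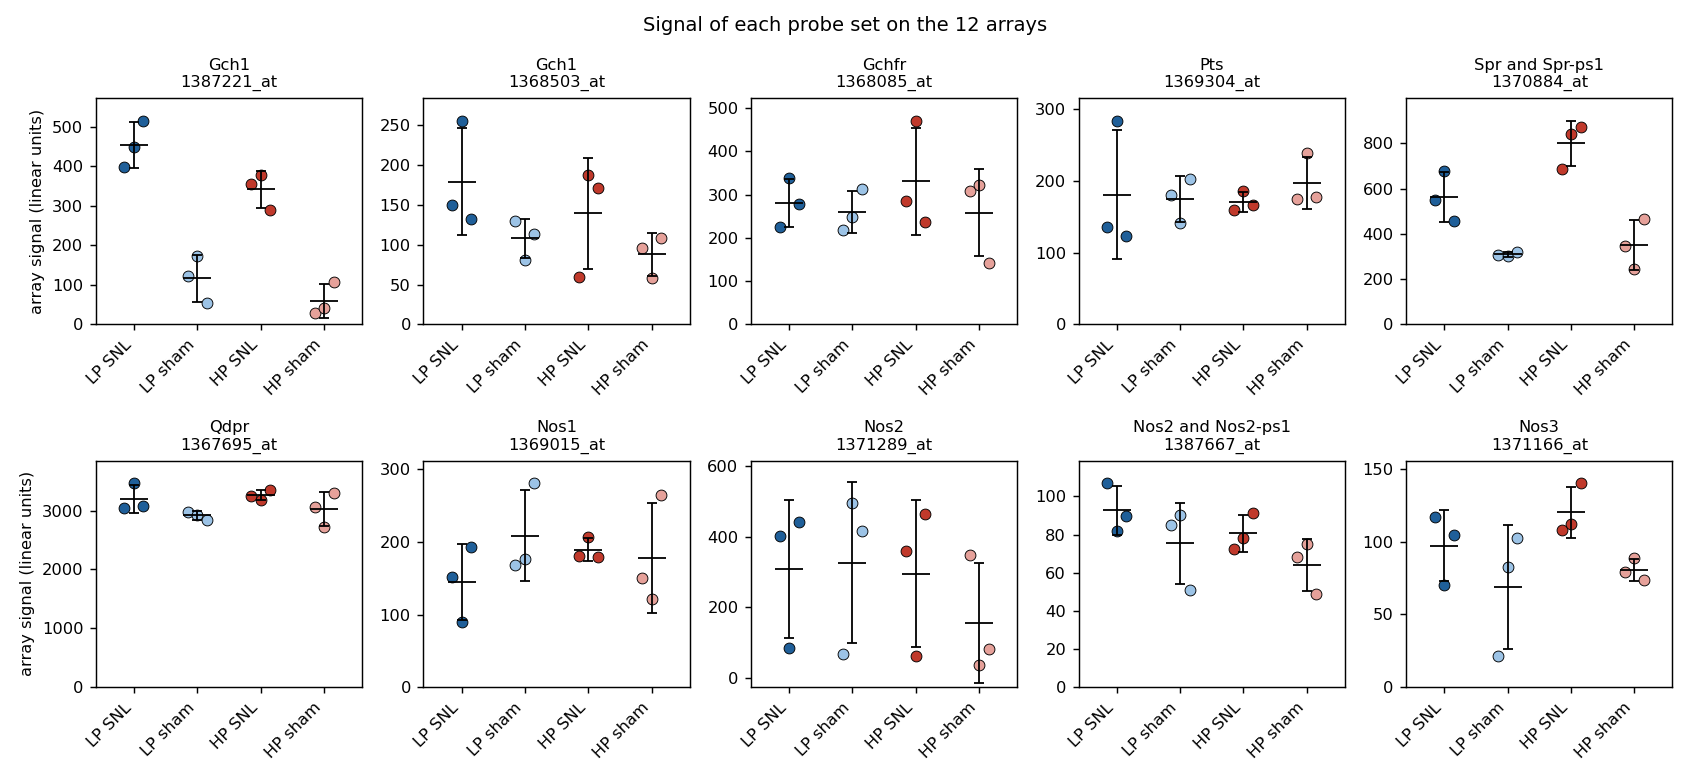
Signal of each probe set (array units, linear axis) on the 12 arrays; points are arrays, horizontal lines group means and bars SD over 3 arrays, with SNL left of sham in each line. In Gch1 1387221_at every ligated array lies above every sham array, and in the shared Spr probe set every ligated array lies above the sham arrays of its line, while in Nos2 1371289_at both high and low arrays occur in every group.

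None of the probe sets of the 3 nitric oxide synthases passed the limma threshold in any comparison, and none had an unadjusted p under 0.05. Nos1, the neuronal enzyme, was measured by 1369015_at, with signals of 152.2, 89.7 and 192.8 in LP SNL, against 167.8, 177.2 and 280.9 in LP sham. In HP SNL they were 180.4, 207.4 and 180, against 150.2, 121.1 and 264.1 in HP sham. The groups overlapped in both lines. The log2 difference was -0.55 ± 0.34 in LP (95% interval -1.31 to 0.21, adjusted p = 0.373) and 0.16 ± 0.34 in HP (95% interval -0.60 to 0.92, adjusted p = 0.837), and the response of LP minus that of HP was -0.71 ± 0.48 (adjusted p = 0.984). With 1 array left out the value in LP lay between -0.79, without LP SNL replicate 3, and -0.24, without LP SNL replicate 2. In HP it lay between -0.08, without HP sham replicate 2, and 0.48, without HP sham replicate 3, so that its sign turned.

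Nos2 is the inducible enzyme, made by activated macrophages among other cells. Its own probe set 1371289_at had signals of 401.9, 85.3 and 441.2 in LP SNL, against 68.3, 495.4 and 415.1 in LP sham. In HP SNL it had 357.8, 63.7 and 464.7, against 348.8, 36.6 and 81.9 in HP sham. The arrays fell into 7 with signals of 348.8 to 495.4 and 5 with signals of 36.6 to 85.3, and each group held arrays of both kinds. The spread within groups was 1.52 log2 units (pooled SD), at percentile 99.8 of all probe sets. In log2 units SNL minus sham was 0.03 ± 1.12 in LP (95% interval -2.46 to 2.53, adjusted p = 0.992) and 1.10 ± 1.12 in HP (95% interval -1.39 to 3.60, adjusted p = 0.616), so neither a large rise nor a large fall could be detected or bounded closely here. With 1 array left out it lay between -0.87 and 0.80 in LP and between 0.38 and 1.99 in HP.

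The probe set shared by Nos2 and Nos2-ps1, 1387667_at, did not show that split. It had signals of 106.9, 81.9 and 89.5 in LP SNL, against 84.9, 90.4 and 50.8 in LP sham. In HP SNL it had 72.7, 78.1 and 91.3, against 68.3, 75 and 49 in HP sham. The groups overlapped, and the log2 difference was 0.33 ± 0.23 in LP (95% interval -0.19 to 0.85, adjusted p = 0.444) and 0.34 ± 0.23 in HP (95% interval -0.18 to 0.86, adjusted p = 0.425). Without the lowest sham array of the line, replicate 3 in each, it was 0.07 in LP and 0.16 in HP.

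Nos3, the endothelial enzyme, was measured by 1371166_at, with signals of 116.9, 70.1 and 104.3 in LP SNL, against 21.1, 82.3 and 102.7 in LP sham. In HP SNL they were 107.6, 112.3 and 140, against 79, 89 and 73.8 in HP sham. The LP groups overlapped, with LP sham replicate 1 the lowest array, and the HP groups did not. On the log2 scale SNL minus sham was 0.74 ± 0.48 in LP (95% interval -0.33 to 1.80, adjusted p = 0.401) and 0.56 ± 0.48 in HP (95% interval -0.50 to 1.63, adjusted p = 0.537). The value in LP rested on LP sham replicate 1, without which it was 0.05 (adjusted p = 0.940). Beside this, the summed signal of 9 endothelial marker probe sets was 3213.9 to 3491.8 in LP SNL and 2660.6 to 2792.5 in LP sham, and 3051.9 to 3389.1 in HP SNL and 2592.3 to 2676.4 in HP sham. Of these 9 probe sets 1 passed as higher in each line, against 6.35% of all probe sets in LP and 5.42% in HP. None of the 9 was at 0, and their part in the Nos3 values was not tested. The sign in HP turned (-0.47, adjusted p = 0.357) when the ratio of the 3′ to the 5′ beta-actin signal of each array was a covariate. LP sham replicate 1 also had the highest ratio of all arrays, 1.877. The SE pools all 4 groups, with log2 SDs of 0.20 in HP SNL and 0.14 in HP sham against 1.21 in LP sham. The HP difference of 0.56 had an adjusted p of 0.0822 when only the HP arrays were fitted, and of 0.114 without LP sham replicate 1.

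**Figure D2:**
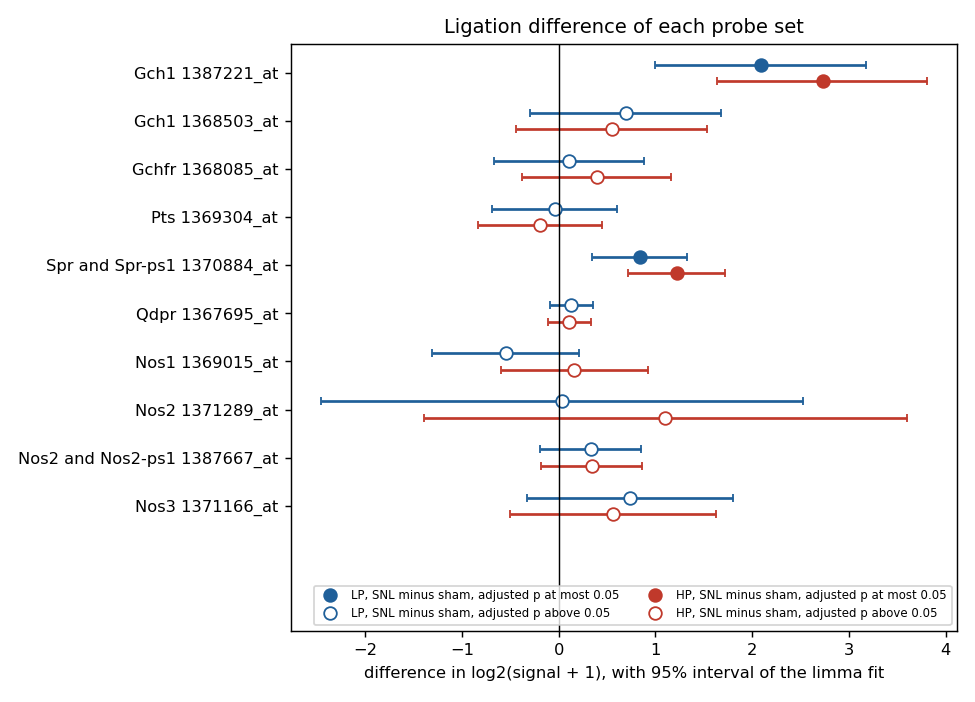
Difference of SNL minus sham in log2(signal + 1) for each probe set, with LP above HP; bars are 95% intervals of the limma fit, and filled points have an adjusted p of at most 0.05. The 4 filled points are those of Gch1 1387221_at (2.09 in LP, 2.73 in HP) and of the shared Spr probe set (0.84 in LP, 1.22 in HP).

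Marker genes of nerve injury and of some other cells moved with ligation too. Over all probe sets 6.35% passed as higher in LP and 5.42% in HP. Of 9 probe sets for injured-neuron markers such as Atf3 and Gal, 8 passed as higher in each line. Their sum was 23118.8 to 24345.1 in LP SNL and 7314.2 to 10553.1 in LP sham, and 22476.2 to 24021.1 in HP SNL and 8141.4 to 9747.6 in HP sham. Of 9 macrophage marker probe sets 6 passed as higher in each line, with sums of 4317.4 to 4976.8 in LP SNL and 1984.2 to 2313.0 in LP sham, and of 4297.3 to 4921.4 in HP SNL and 2054.2 to 2205.0 in HP sham. Of 7 satellite glia marker probe sets 5 passed as higher in each line, with sums of 9960.8 to 10596.1 in LP SNL and 6910.5 to 7721.1 in LP sham, and of 10724.9 to 11449.3 in HP SNL and 6942.0 to 7236.8 in HP sham. No marker of these 3 lists was at 0 on any array, and their part in the rise of Gch1 1387221_at and the shared Spr probe set was not tested. In neither line did any of 6 Schwann cell and myelin, 6 T cell or 3 neutrophil marker probe sets pass. The sum of 4 skeletal muscle probe sets was 766.2 to 865.4 in LP SNL and 762.0 to 1000.7 in LP sham, and 763.0 to 892.4 in HP SNL and 888.5 to 2019.5 in HP sham, where replicates 1 and 3 were the high ones. Without HP sham replicate 1 the difference of Gch1 1387221_at in HP was 2.32 (adjusted p = 0.0266), and without replicate 3 it was 3.27 (adjusted p = 0.00380).

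RNA quality was read from beta-actin, as the signal of its 3′ probe set over that of its 5′ probe set. It lay between 1.113 and 1.125 in LP SNL and between 0.993 and 1.877 in LP sham, and between 1.118 and 1.342 in HP SNL and between 1.483 and 1.847 in HP sham. With its log2 value as a covariate the difference of Gch1 1387221_at was 2.24 in LP (adjusted p = 0.0254) and 3.08 in HP (adjusted p = 0.0251). The shared Spr probe set lost its call in LP under that covariate (0.87, adjusted p = 0.0556) and kept it in HP. In HP every sham ratio lay above every SNL ratio, so RNA quality and ligation cannot be told apart there by this fit.

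Whether the 2 lines differed was asked separately after ligation and after sham surgery. Of the 8 probe sets none passed in LP against HP in either state, or in the difference between the lines' ligation responses, and none had an unadjusted p under 0.05. Over all 15866 probe sets, 0.145% passed after SNL, 0.0441% after sham and 0% in the difference of responses, where 747 had an unadjusted p under 0.05. For Gch1 1387221_at, LP minus HP was 0.41 ± 0.49 after SNL (95% interval -0.67 to 1.50, adjusted p = 0.815) and 1.05 ± 0.49 after sham (95% interval -0.04 to 2.14, unadjusted p = 0.0566, adjusted p = 0.546). Its group means thus ran, from the top, LP SNL, HP SNL, LP sham and HP sham. The 3 LP SNL arrays all lay above the 3 HP SNL arrays, with SDs of 0.19 in LP SNL and 0.20 in HP SNL on the log2 scale, whereas the sham arrays of the 2 lines overlapped, with SDs of 0.83 in LP sham and 0.98 in HP sham. The limma SE pools all 4 groups, and fitted on the 6 SNL arrays alone the difference of 0.41 had an adjusted p of 0.503. The other 7 probe sets overlapped between the lines in both states. For the shared Spr probe set LP minus HP was -0.52 ± 0.22 after SNL (95% interval -1.02 to -0.02, unadjusted p = 0.0420, adjusted p = 0.449), with all LP SNL arrays below all HP SNL arrays. It was -0.14 ± 0.22 after sham (adjusted p = 0.892), where the lines overlapped and the value was 0.08 without HP sham replicate 3. The other line differences lay between -0.45 for Nos1 and 0.47 for Gch1 1368503_at after SNL, and between -0.50 for Nos3 and 1.24 for Nos2 1371289_at after sham. Of 10 sensory neuron marker probe sets, 1 passed in limma as lower in LP against HP after SNL and 0 passed after sham. Their median difference was -0.28 after SNL and -0.05 after sham. The part of these markers in the line differences was not tested.

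The surrounding pathway was read from 4 lists of 54 genes, of which 38 had 52 probe sets of their own. In LP 5 of the 52 probe sets rose and 2 fell, and in HP 6 rose and 1 fell (13.5% called in each line, against 12.1% of all probe sets in LP and 10.8% in HP). The median log2 difference over the 52 was -0.04 in LP and 0.00 in HP. In limma none passed in LP against HP after SNL (5 with an unadjusted p under 0.05), in LP against HP after sham (7) or in the difference of responses (2). Over all 15866 probe sets, 1684 had an unadjusted p under 0.05 after SNL, 1500 after sham and 747 in the difference of responses.

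Arginine supply and removal held most of these calls, with 4 of 13 probe sets higher and 1 lower in each line and median differences of -0.10 in LP and 0.06 in HP. Arg1, an arginase that splits the arginine used by nitric oxide synthases, averaged 652.0 ± 61.4 in LP SNL and 183.4 ± 38.9 in LP sham, and 698.7 ± 9.8 in HP SNL and 153.6 ± 58.6 in HP sham (SD, n = 3 each). It rose by 1.84 ± 0.26 in LP (log2, adjusted p = 0.00153) and by 2.25 ± 0.26 in HP (adjusted p = 0.000806). Ass1, argininosuccinate synthase, the first enzyme that turns citrulline back into arginine, was the one that fell. It averaged 215.2 ± 25.8 in LP SNL and 470.9 ± 49.4 in LP sham, and 302.4 ± 9.1 in HP SNL and 530.9 ± 56.2 in HP sham, with log2 differences of -1.13 ± 0.13 in LP (adjusted p = 0.000474) and -0.80 ± 0.13 in HP (adjusted p = 0.00352). The groups of Arg1 and of Ass1 did not overlap in either line.

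Ddah2 belongs to the enzymes that break down methylated arginines, which inhibit nitric oxide synthases. It averaged 671.7 ± 103.9 in LP SNL and 367.9 ± 49.4 in LP sham, and 570.6 ± 36.8 in HP SNL and 347.0 ± 48.8 in HP sham (SD, n = 3 each). It rose by 0.86 ± 0.15 in LP (adjusted p = 0.00573) and by 0.72 ± 0.15 in HP (adjusted p = 0.0158). The HP call was lost without HP SNL replicate 3 (0.67, adjusted p = 0.0594), HP sham replicate 1 (0.66, adjusted p = 0.0649) or HP sham replicate 3 (0.68, adjusted p = 0.0606), and with the actin covariate (0.76, adjusted p = 0.0631). Ddah1, its paralogue, and 1 of the 2 probe sets of Asl, argininosuccinate lyase, also passed as higher in both lines, and the other Asl probe set passed in neither. The probe sets of the arginine transporters Slc7a1, Slc7a2 and Slc7a3, of Arg2 and of Odc1, the ornithine decarboxylase of polyamine synthesis, did not pass.

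Of the enzymes that use or salvage tetrahydrobiopterin, 4 of 11 genes had a probe set of their own, and none of their 5 probe sets passed in either line (limma, 1 with an unadjusted p under 0.05 in each line). Over all 15866 probe sets, 3895 had an unadjusted p under 0.05 in LP and 3810 in HP. Th, tyrosine hydroxylase, the tetrahydrobiopterin-dependent first enzyme of catecholamine synthesis, had a log2 difference of 0.00 in LP and 0.02 in HP. The values of the list ran from -0.25 for Akr1b1, aldose reductase, to 0.29 for Cbr1, a carbonyl reductase, in LP. In HP they ran from -0.12 for Akr1b1 to 0.44 for Cbr1. The unadjusted p under 0.05 was that of Akr1b1 in LP (0.0447, adjusted p = 0.190) and that of Cbr1 in HP (0.0207, adjusted p = 0.120). These 3 genes were chosen after their values were seen.

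Among partners and regulators of nitric oxide synthases, 1 of 16 probe sets passed in LP, as lower, and 0 passed in HP in limma. At an unadjusted p under 0.05 there were 3 in LP and 0 in HP. Over all 15866 probe sets, 914 passed as lower in LP, so 1 of 16 is near the background. The one that passed in LP was 1 of the 3 probe sets of Dlg4 (1387210_at), the postsynaptic scaffold PSD-95 that binds Nos1. It averaged 453.6 ± 28.7 in LP SNL and 603.7 ± 21.0 in LP sham, and 438.4 ± 10.2 in HP SNL and 482.7 ± 34.4 in HP sham (SD, n = 3 each). The log2 difference was -0.41 ± 0.09 in LP (adjusted p = 0.0152) and -0.14 ± 0.09 in HP (adjusted p = 0.413), and the test of the difference between the lines gave -0.28 ± 0.13 (adjusted p = 0.984). The LP call was lost without LP SNL replicate 3 (-0.36, adjusted p = 0.0642), without LP sham replicate 1 (-0.39, adjusted p = 0.0518) and when only the arrays compared were fitted (-0.41, adjusted p = 0.0896). The other 2 Dlg4 probe sets passed in neither line.

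In cyclic GMP signalling and nitrosothiol removal, 1 of 18 probe sets rose in LP and 2 in HP, against 6.35% of all probe sets in LP and 5.42% in HP. The count in LP is thus near the background. Txnrd1, a thioredoxin reductase that keeps thioredoxin able to remove nitrosothiols, averaged 979.3 ± 77.3 in LP SNL and 637.7 ± 40.3 in LP sham, and 883.5 ± 47.4 in HP SNL and 554.2 ± 71.7 in HP sham with 1386958_at (SD, n = 3 each). It rose by 0.62 ± 0.12 in LP (adjusted p = 0.00724) and by 0.68 ± 0.12 in HP (adjusted p = 0.00547), and its other probe set did not pass (0.48 in LP, adjusted p = 0.115, and 0.39 in HP, adjusted p = 0.212). Pde5a, the phosphodiesterase that breaks down cyclic GMP, averaged 245.2 ± 20.4 in LP SNL and 167.1 ± 29.3 in LP sham, and 177.9 ± 30.4 in HP SNL and 73.4 ± 23.6 in HP sham (SD, n = 3 each). In LP its log2 difference was 0.56 ± 0.24 (adjusted p = 0.184). It rose in HP by 1.31 ± 0.24 (adjusted p = 0.00789, or 0.0530 when only the arrays compared were fitted). The response of LP minus that of HP was -0.75 ± 0.34 (unadjusted p = 0.0536, adjusted p = 0.984). The soluble guanylate cyclase subunits Gucy1a1, Gucy1a2, Gucy1b1 and Gucy1b2, the receptor for nitric oxide, did not pass in either line.

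**Figure D3:**
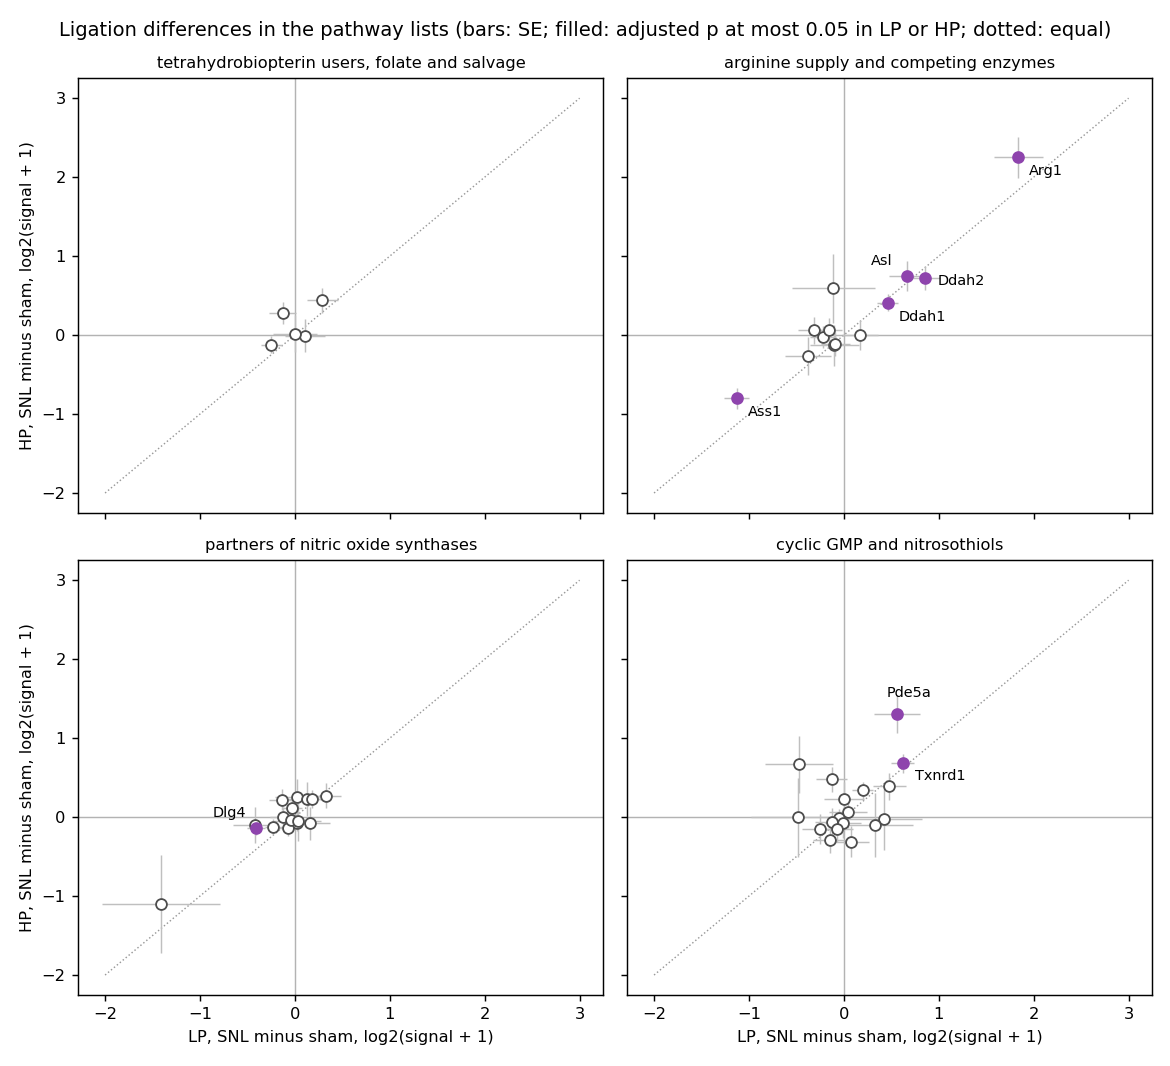
Log2 difference of SNL minus sham in LP (horizontal) and HP (vertical) for the 52 probe sets of the 4 pathway lists, with SE bars; filled points have an adjusted p of at most 0.05 in LP or HP, and the dotted line marks equal differences. Arg1 stands at 1.84 in LP and 2.25 in HP and Ass1 at -1.13 in LP and -0.80 in HP, and no point of the list of tetrahydrobiopterin users, folate and salvage enzymes is filled.

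The genes whose pattern over the 12 arrays was most like that of Gch1 1387221_at were Serpina3n, Sprr1a, Csrp3, Gadd45a and C3. Likeness was the root mean square difference of log2 values, each probe set centred on its own mean, among 6741 candidate probe sets at or above the median brightness. It was 0.61 for Serpina3n, a serine protease inhibitor, 0.66 for Sprr1a, a protein of regenerating axons, and 0.68 for Csrp3, the muscle LIM protein. It was 0.69 for Gadd45a, a stress response gene, and 0.71 for C3, a complement component, where the root mean square of Gch1 itself was 1.38. Since they were chosen for their likeness to a probe set that was high on every ligated array, their ligation differences are a description only. Serpina3n averaged 1760.4 in LP SNL and 292.5 in LP sham, and 731.2 in HP SNL and 199.0 in HP sham (log2 difference 2.61 ± 0.20 in LP and 1.88 ± 0.20 in HP). Sprr1a differed by 1.57 ± 0.15 in LP and 2.29 ± 0.15 in HP, and Csrp3 by 2.23 ± 0.22 in LP and 2.57 ± 0.22 in HP. In promoters of the same length, Sprr1a held 2 matches to TGANTCA and Gadd45a 1 to TGACG and 1 to CCAAT. Serpina3n and C3 held none, and the promoter of Csrp3 was not analysed here. Over all promoters of that length the shares were 7.3% for TGANTCA, 21.2% for TGACG and 37.5% for CCAAT.

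**Figure D4:**
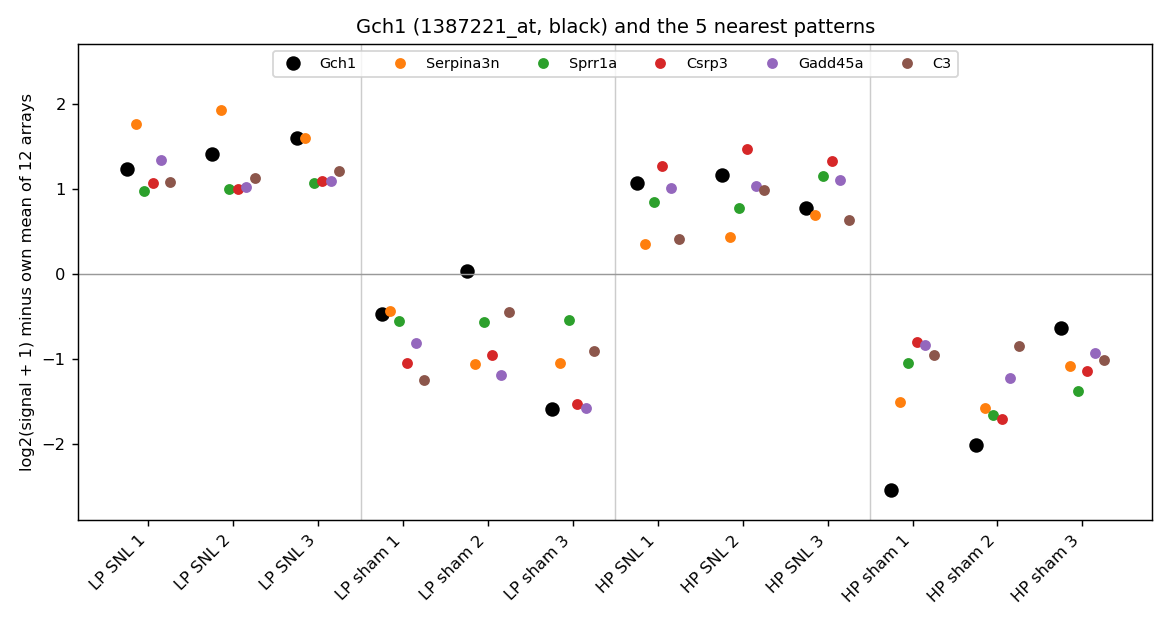
Log2(signal + 1) on each of the 12 arrays, centred on each probe set's own mean, for Gch1 1387221_at (large black points) and the 5 genes with the nearest pattern (coloured points). All 6 lie above 0 in every SNL array, and Gch1 reaches lower in 2 HP sham arrays than the others.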

How the data were processed

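In the deposited table each probe set has 1 intensity on each array, linear and between 0 and 13930.7. Per the labels' protocols, a Qiagen RNeasy kit was used for total RNA, and Affymetrix procedures for biotin labelling. Per the submitters' processing notes the tool was RMA, with no version. The values are not log2, and each array's mean without its lowest and highest 2% was 500.1, as after global scaling, so the authors' exact steps are not settled here; image software is not given in the sources used here.

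Log2(intensity + 1) was fitted without further normalization in limma 3.58.1 (with statmod 1.5.0, R 4.3.3). The fit had 4 group means, 8 residual and 1.91 prior degrees of freedom. Two-sided p-values were adjusted per contrast (Benjamini-Hochberg) over 15866 probe sets, without 57 controls. Groups came from the sample titles. Symbols came from the platform annotation, updated through RefSeq by gene identifier (12748), by accession (2) or kept (33). Of these probe sets, 12783 had 1 symbol, 312 several and 2771 none. Precision rose with brightness, the median SD within groups being 0.613 log2 units in the dimmest 25% and 0.135 in the brightest. With 3 arrays per group, precision is limited by their number.

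Members, lists and tests were chosen with earlier results of these data known. Named were all members, at most 3 called probe sets with the smallest adjusted p per pathway list with values, and the 5 nearest patterns to the called Gch1 probe set. Other called or uncalled list genes are named without values, except Th, Cbr1 and Akr1b1, whose values had been seen when they were added. The fit was checked on simulated data drawn independently for each array, which says nothing of RNA quality or of shared deviations among these arrays. Alternatives were quantile normalization, median centring, pseudocounts of 16 and 32, leaving out the dimmest 25%, trended and robust variance, array weights, only the arrays compared, 1 probe set per gene, the log2 ratio of the 3′ to the 5′ beta-actin probe set as a covariate, the replicate number as a block and each array left out. They were applied to the pathway lists and nearest patterns after seeing the data.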

Additional observations from a re-analysis of the deposited data

How the results depend on the processing

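For the members, the list genes called and given with values and the nearest patterns, the 23 alternatives gave 1619 values; no called value changed sign, 21 calls were lost and none was gained. The Gch1 1387221_at call in LP held in 19 of 23 (1.63 to 2.44, adjusted p 0.00543 to 0.0715), and that in HP in all 23 (2.12 to 3.27, adjusted p 0.00158 to 0.0341). Among the 8 probe sets the count passing in LP ranged from 0 to 1 when each array was left out. Over all probe sets, the count passing after ligation in LP (1922) was 834 with only the arrays compared and 1248 to 1837 with 1 array left out. In HP (1708) it was 1069 with only the arrays compared, 915 with the actin covariate and 981 to 1775 with 1 array left out. In LP against HP after SNL (23) it was 14 after quantile normalization, 44 with a pseudocount of 32, 38 without the dimmest probe sets, 68 with trended and robust variance, 37 with array weights, 7 with only the arrays compared, 14 with the actin covariate, 10 with the replicate block, and 1 to 22 with 1 array left out. In LP against HP after sham (7) it was 1 after quantile normalization, 15 without the dimmest probe sets, 38 with trended and robust variance, 0 with only the arrays compared, 1 with 1 probe set per gene, 15 with the actin covariate, 0 with the replicate block, and 0 to 11 with 1 array left out. In the difference of responses (0) it was 2 with the actin covariate and 0 to 3 with 1 array left out. The pathway count (7 in each line) was 4 in LP with only the arrays compared and without LP sham replicate 1, and 4 in HP with the actin covariate and without HP SNL replicate 3, HP sham replicate 1 or HP sham replicate 3; it was 8 in each line with trended and robust variance and with array weights, and 8 in HP without the dimmest probe sets. Fits with fewer arrays have fewer samples; the cause of the other shifts was not tested. Same-numbered arrays did not deviate together (r from -0.17 to 0.11 over 18 pairs, 1 above 0.1), so the numbers were not taken as pairs; with the replicate block Gch1 1387221_at gave 2.09 in LP (adjusted p = 0.0461) and 2.73 in HP (adjusted p = 0.0206), and the shared Spr probe set in LP gave 0.84 (adjusted p = 0.0736). Most member probe sets are below the median brightness, where the spread limits what 3 arrays per group can show.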
